A study of Mus musculus with 31 samples.

Results

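The 120 vomeronasal type 2 receptor genes examined were all protein-coding genes of the mouse GENCODE M21 annotation whose symbol is Vmn2r followed by a number, of 21938 protein-coding genes on chromosomes 1 to 19, X and Y. They lie on 8 chromosomes, with 51 genes on chromosome 7, 31 on chromosome 17, 11 on chromosome 5, 9 on chromosome 6, 8 on chromosome 10, 7 on chromosome 3, 2 on chromosome 14 and 1 on the X chromosome. Genes less than 500 kb apart were joined into 14 clusters, which held 115 of the genes, and 5 genes stood alone.

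The series asked how overexpressed transcription factors (TFs) change chromatin accessibility in NIH-3T3 cells, a mouse fibroblast line, by ATAC-seq, in which the transposase Tn5 cuts and tags open DNA. A single library was analysed here, from parental cells without a TF transgene. The labels give 50000 cells, 0.5 µM Tn5 and 12 PCR cycles and name no doxycycline for the parental library, whereas the study's methods describe doxycycline treatment of NIH-3T3 cells in general. With 1 library and no replicate, values are described without any test between samples, and RNA was not measured in it. The library had 63456 peaks, and all 12 fibroblast marker genes checked, Col1a1, Fn1 and Vim among them, had a peak within 1 kb of a transcription start site (TSS). The peak of Thy1 was weak, with 12 fragments at its summit, and lay 862 bp from the TSS. Among coding genes outside the family, on the chromosomes with Vmn2r genes, the share with such a peak was 51.0%.

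Vmn2r genes encode class C G protein-coupled receptors with a large extracellular domain that binds peptide and protein pheromones. They are used by the basal sensory neurons of the vomeronasal organ, which signal through the G protein subunit encoded by Gnao1 and the channel encoded by Trpc2. Each such neuron is known to express very few of these receptors, usually 1 of the main group together with a member of the broadly expressed family C (Vmn2r1 to Vmn2r7). The genes lie in tandem arrays of related copies, interspersed with pseudogenes.

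Intragenic and nearby peaks were rare in the family, so the sequences of those with the clearest relation to a member are shown first. Coordinates are of GRCm38 (mm10), and stretches of at most 201 bases around the peak summit are printed. Capitals mark TGACTCA or its reverse complement TGAGTCA, the binding sequence of AP-1, a TF family that is active in fibroblasts. The first 3 lie in introns of Vmn2r7, Vmn2r13 and Vmn2r20. The next 3 are the peaks nearest to any Vmn2r TSS. The last 2 are copies of the sequence under the peak in Vmn2r9.
Vmn2r7 intron, chr3:64791049-64791202, plus strand: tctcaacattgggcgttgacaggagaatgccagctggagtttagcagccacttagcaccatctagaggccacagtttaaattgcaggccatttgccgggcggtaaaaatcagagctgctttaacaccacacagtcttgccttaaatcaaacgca
Vmn2r13 intron, chr5:109158858-109159058, plus strand: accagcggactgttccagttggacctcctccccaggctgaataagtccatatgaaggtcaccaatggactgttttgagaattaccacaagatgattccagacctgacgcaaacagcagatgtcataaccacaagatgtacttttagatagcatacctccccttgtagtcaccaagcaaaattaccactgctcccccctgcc
Vmn2r20 intron, chr6:123398576-123398719, plus strand: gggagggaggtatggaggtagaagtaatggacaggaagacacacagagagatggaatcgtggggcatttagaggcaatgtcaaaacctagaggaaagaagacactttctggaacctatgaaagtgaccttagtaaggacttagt
Peak upstream of Vmn2r102, chr17:19658577-19658698, plus strand: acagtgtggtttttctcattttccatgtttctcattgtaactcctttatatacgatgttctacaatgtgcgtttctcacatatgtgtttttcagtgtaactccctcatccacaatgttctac
Peak upstream of Vmn2r85, chr10:130434370-130434570, plus strand: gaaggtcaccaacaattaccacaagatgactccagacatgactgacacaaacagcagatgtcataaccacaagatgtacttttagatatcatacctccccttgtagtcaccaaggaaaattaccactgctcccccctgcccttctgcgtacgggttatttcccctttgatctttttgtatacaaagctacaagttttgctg
Peak upstream of Vmn2r12, chr5:109103099-109103273, plus strand: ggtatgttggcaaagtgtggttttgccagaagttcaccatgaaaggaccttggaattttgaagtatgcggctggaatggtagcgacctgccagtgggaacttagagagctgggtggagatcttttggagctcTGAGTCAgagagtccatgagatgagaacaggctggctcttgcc
Peak between Vmn2r10 and Vmn2r11, chr5:109032702-109032894, plus strand: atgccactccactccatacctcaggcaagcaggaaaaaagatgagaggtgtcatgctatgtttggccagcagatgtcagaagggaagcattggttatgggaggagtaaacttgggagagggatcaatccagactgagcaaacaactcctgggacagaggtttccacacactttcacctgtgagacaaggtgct
Peak between Vmn2r11 and Vmn2r12, chr5:109072156-109072287, plus strand: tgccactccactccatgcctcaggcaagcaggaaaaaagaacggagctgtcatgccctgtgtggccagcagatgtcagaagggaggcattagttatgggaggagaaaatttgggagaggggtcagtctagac

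Promoter sequences were taken from RefSeq (GRCm38.p6), in which 114 of the 120 members had an entry, and are printed up to the next annotated exon. The stretch of Vmn2r53 lies inside the gene as GENCODE annotates it. That gene's 5′ end is at 12608788, and another of its transcripts starts at 12606544. Whether the Vmn2r53 stretch acts as a promoter was not tested. The stretches of Vmn2r29, Vmn2r48, Vmn2r53 and Vmn2r91 are examples of RefSeq promoters with a TGACTCA sequence, each from another cluster. Every GENCODE coding transcript of Vmn2r29 and Vmn2r48 starts at the start codon. Their printed stretches end there, and whether transcription starts further upstream is not known here. Vmn2r75 was the member farthest from any peak, and Vmn2r1 is a family C receptor.
Vmn2r29 promoter, chr7:7247329-7247578, minus strand: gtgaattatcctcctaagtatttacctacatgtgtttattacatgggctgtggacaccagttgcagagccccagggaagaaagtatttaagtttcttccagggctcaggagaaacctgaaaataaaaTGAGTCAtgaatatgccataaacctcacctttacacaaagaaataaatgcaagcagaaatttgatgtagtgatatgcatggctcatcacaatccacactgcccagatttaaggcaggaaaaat
Vmn2r48 promoter, chr7:9953586-9953835, minus strand: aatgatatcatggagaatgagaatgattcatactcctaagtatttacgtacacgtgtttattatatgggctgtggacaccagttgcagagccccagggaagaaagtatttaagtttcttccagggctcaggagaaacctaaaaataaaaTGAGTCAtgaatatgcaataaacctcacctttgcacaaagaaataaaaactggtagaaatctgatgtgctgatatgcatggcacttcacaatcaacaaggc
Vmn2r53 promoter, chr7:12606552-12606794, minus strand: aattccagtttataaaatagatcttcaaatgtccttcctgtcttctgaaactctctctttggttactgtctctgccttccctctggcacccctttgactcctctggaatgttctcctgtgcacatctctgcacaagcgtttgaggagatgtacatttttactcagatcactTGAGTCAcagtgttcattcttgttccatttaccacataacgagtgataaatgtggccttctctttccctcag
Vmn2r91 promoter, chr17:18084807-18085015, plus strand: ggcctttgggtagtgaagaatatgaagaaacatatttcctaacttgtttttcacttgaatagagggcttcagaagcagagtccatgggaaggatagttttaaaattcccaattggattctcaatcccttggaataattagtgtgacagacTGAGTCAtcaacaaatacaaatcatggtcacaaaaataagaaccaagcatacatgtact
Vmn2r75 promoter, chr7:86171779-86171974, minus strand: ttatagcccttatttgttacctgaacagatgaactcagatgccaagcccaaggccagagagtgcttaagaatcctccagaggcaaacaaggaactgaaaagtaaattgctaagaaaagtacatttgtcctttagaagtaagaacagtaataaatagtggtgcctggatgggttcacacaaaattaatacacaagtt
Vmn2r1 promoter, chr3:64081392-64081546, plus strand: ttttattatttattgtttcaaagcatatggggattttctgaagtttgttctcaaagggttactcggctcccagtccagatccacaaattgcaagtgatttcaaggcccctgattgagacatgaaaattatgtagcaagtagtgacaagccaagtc

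No Vmn2r gene had a called peak at a GENCODE M21 TSS. Of 120 genes, 0 had a peak that reached to within 1 kb of an annotated transcript start, while 4696 of the 9206 other protein-coding genes of the same chromosomes did (51.0%). The count was 0 on each of the 8 chromosomes, where between 36.3% of the other genes on the X chromosome and 61.1% of those on chromosome 5 had a TSS peak. Within 5 kb of a TSS, 2 members had a peak. These were Vmn2r102 on chromosome 17, at 1.63 kb, and Vmn2r85 on chromosome 10, at 4.48 kb. Vmn2r12 on chromosome 5 followed at 5.06 kb.

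The distance from the closest TSS to the nearest peak had a median of 153 kb over the 120 genes, with quartiles of 58 and 425 kb and a range of 1.63 to 1159 kb. In the other coding genes the median distance was 0.692 kb. A distance above 100 kb was found for 75 members (62.5%), against 15% of the other genes. A distance above 500 kb was found for 25 members (20.8%), against 4.24% of the others. The 5 members farthest from any peak were neighbours on chromosome 7, namely Vmn2r75 at 1159 kb, Vmn2r74 at 1149 kb, Vmn2r76 at 1085 kb, Vmn2r73 at 1063 kb and Vmn2r72 at 942 kb. Their TSS regions were readable by the sequencing, since at least 99.0% of the 75-base words within 1 kb of each TSS occur once in the genome.

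**Figure D1:**
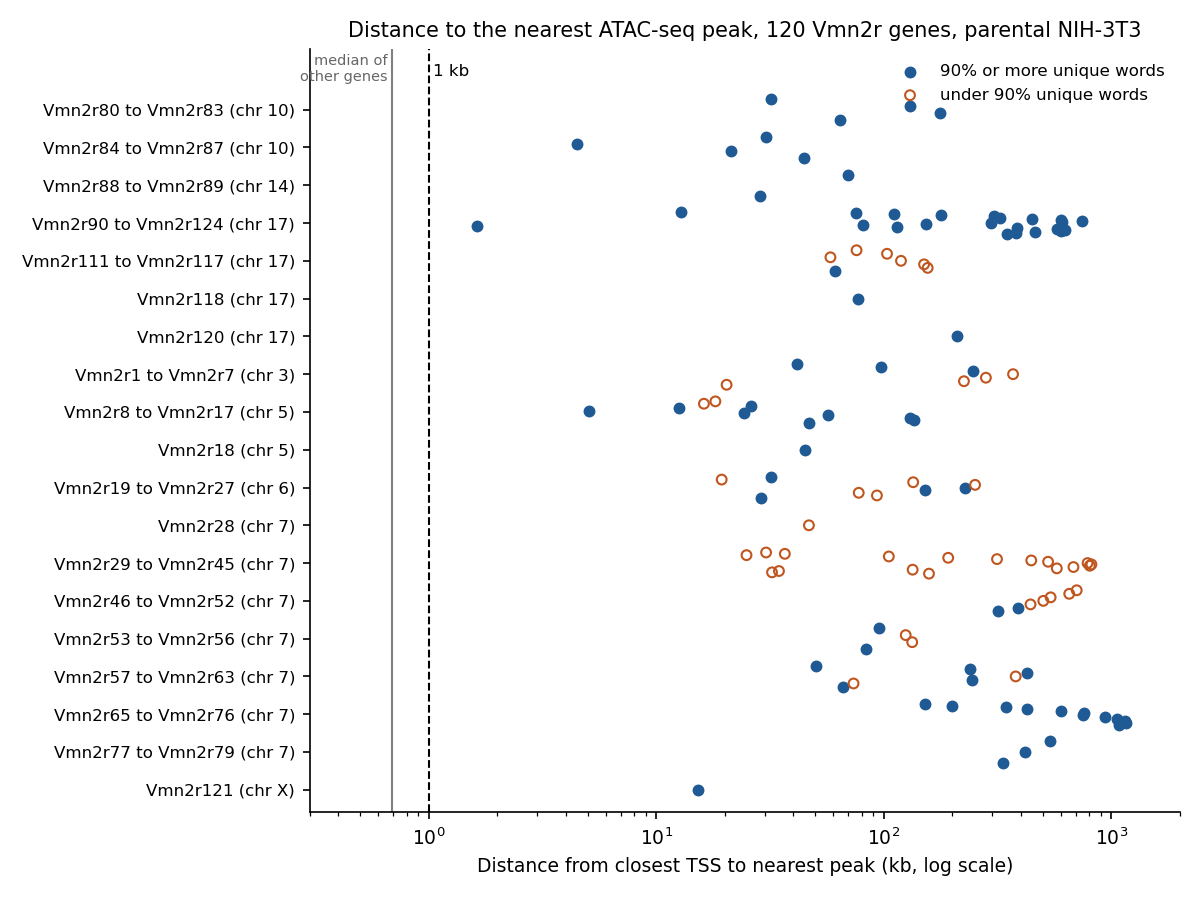
Distance in kb (log scale) from the closest TSS of each of the 120 Vmn2r genes to the nearest peak, with 1 row per cluster or single gene in order of chromosome. All points lie to the right of the 1 kb line, and filled points are genes with at least 90% unique 75-base words around the TSS.

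The annotated starts bear on this measure. Of 347 coding transcripts of the family 20 start directly at the start codon, so that no 5′ UTR is annotated, and for 11 of the 120 genes this holds for every coding transcript (against 5.26% of the other genes). For these 11 genes the distance to a peak was at least 30.4 kb, and for the 109 genes with a coding transcript that starts further upstream the number with a TSS peak was 0 as well. The gene models were otherwise alike, with 6 exons in the longest coding transcript of 111 genes, and 82 of the genes are on the minus strand.

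The distances differed between clusters. The shortest median was 25.3 kb, over the 10 genes of Vmn2r8 to Vmn2r17 on chromosome 5, followed by 25.8 kb over the 4 genes of Vmn2r84 to Vmn2r87 on chromosome 10. The longest was 753 kb, over the 12 genes of Vmn2r65 to Vmn2r76 on chromosome 7, where the gene closest to a peak was Vmn2r65 at 151 kb. The farthest gene of the chromosome 5 cluster, Vmn2r16, was at 136.5 kb. Clusters were picked here by their medians, and genes of a cluster share nearest peaks, so their distances are not separate observations. The 5 genes outside clusters lay 15.2 kb (Vmn2r121), 44.9 kb (Vmn2r18), 46.9 kb (Vmn2r28), 77.4 kb (Vmn2r118) and 209.5 kb (Vmn2r120) from a peak. None of the single genes had a peak in its body.

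No receptor of family C had a TSS peak. Vmn2r1 to Vmn2r7 form 1 cluster of 0.763 Mb on chromosome 3 with 1 peak in it, in an intron of Vmn2r7. The distance to the nearest peak was 41.5 kb for Vmn2r1, 97.5 kb for Vmn2r2, 247 kb for Vmn2r3, 370 kb for Vmn2r4, 281 kb for Vmn2r5, 225 kb for Vmn2r6 and 20.4 kb for Vmn2r7. The members at both ends of the cluster were closer to a peak than those inside it. Around the TSS, 56% of the 75-base words were unique in Vmn2r6 and 19% in Vmn2r5, while the other 5 genes had 74% to 100%. The nearest coding gene with a TSS peak was Gmps, 105 kb before the cluster, and on the other side Kcnab1, 265 kb after it.

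Among other chemosensory receptor families, TSS peaks were also rare. A TSS peak was found for 5 of 207 Vmn1r genes (2.42%), which encode the receptors of the apical vomeronasal neurons, and for 11 of 1093 Olfr genes (1.01%), the odorant receptors. The Vmn1r genes with one were Vmn1r4, Vmn1r40, Vmn1r42, Vmn1r43 and Vmn1r49, all on chromosome 6. The Olfr genes with the highest fold enrichment were Olfr432 (12.0), Olfr373, Olfr12, Olfr90, Olfr156 and Olfr433 (4.97). Fold enrichment is the fragment pileup over the local expectation, with 1 added to both. The Taar (trace amine receptors, 15 genes) and Fpr (formyl peptide receptors, 7 genes) families had no TSS peak, and 1 of 35 bitter taste receptor (Tas2r) genes had one, Tas2r126. The median distance to a peak was 168 kb in Vmn1r and 217 kb in Olfr genes, near the 153 kb of the Vmn2r genes, and shorter in the smaller families, at 39.4 kb in Taar, 48.0 kb in Fpr and 58.4 kb in Tas2r genes. Of 115 annotated Vmn2r pseudogenes 0 had a TSS peak. These families share the tandem arrangement, and the difference between Vmn2r and Vmn1r was not tested.

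**Figure D2:**
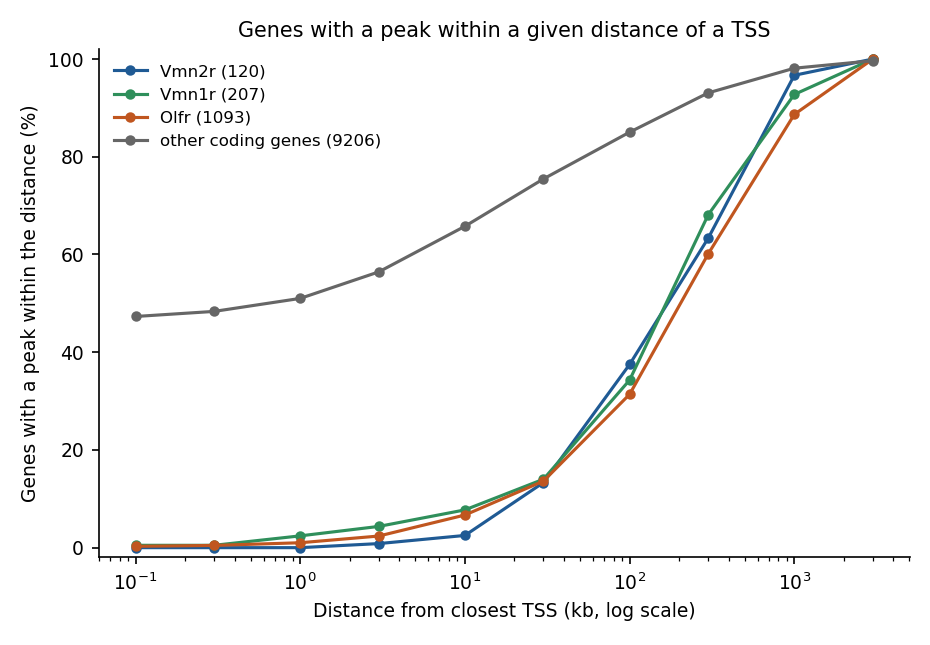
Percent of genes with a peak within a given distance (kb, log scale) of the closest TSS for Vmn2r, Vmn1r, Olfr and the other coding genes of the chromosomes with Vmn2r genes, with gene numbers in parentheses. At 1 kb the other genes are at 51.0% and Vmn2r genes at 0, and at 100 kb Vmn2r genes reach 37.5%.

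Genes that work with these receptors in part had a peak within 1 kb of a TSS. Of 11 genes for signal transduction and receptor partners, 7 had a TSS peak (63.6%), a share near the 51.0% of the other coding genes. B2m, the light chain of MHC class I molecules, had a fold enrichment of 15.1 at the summit of its best peak, Calr (calreticulin) 14.2, Gnao1 8.50, Omp 7.95, Gng8 7.80 and Ano1 7.02. For Omp and Ano1 the nearest peaks did not reach the TSS and lay 969 and 245 bp from it. Trpc2, the vomeronasal channel gene, had no TSS peak, with the nearest peak at 17.3 kb. The 9 H2-M genes, which include MHC class I genes used by neurons with V2R receptors, had no TSS peak and lay 4.71 to 239.5 kb from the nearest one. Of 15 transcription and chromatin regulators with roles in olfactory or vomeronasal neurons, 7 had a TSS peak (46.7%), again near that share. The highest fold enrichments among these were those of Ebf1 (10.27), Atf5 (9.98), Meis2 (7.62), Ldb1 (7.52), Kdm1a (7.03) and Emx2 (5.75). Of 15 other class C receptor genes, Gabbr1 (15.4), Tas1r1 (7.45) and Grm8 (5.52) had one, 3 in all. The peaks of Tas1r1 and Grm8 did not reach the TSS and lay 645 and 852 bp from it. Of the epithelial markers 1 of 4 and of the blood markers 1 of 3 had a TSS peak, whereas 5 of 6 marker genes of vomeronasal neurons did, genes such as Gnao1 being used in other cells as well.

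Gene bodies held few peaks. A peak was found in 5 of 120 Vmn2r gene bodies (4.17%), against 5482 of the 9206 other coding genes (59.5%). The 9 peaks in 3.675 Mb of Vmn2r gene body amounted to 0.245 per 100 kb, compared with 3.39 per 100 kb in the other genes. Vmn2r genes were not short, with a median length of 27.2 kb against 15.7 kb for the others. Among other genes with a length between the quartiles of the Vmn2r genes, 74.5% had a peak in the body and 64.6% at the TSS.

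Of the 5 genes with an intragenic peak, 3 belong to the chromosome 5 cluster. Vmn2r11 had the strongest peak, at chr5:109045448-109046120, with 63 fragments at the summit where 3.48 were expected. With the constant added to both numbers as above, the fold enrichment was 14.3. The −log10 q of the peak was 52.5 (q is the p-value of the peak caller after adjustment). Its summit lay in the 3′ UTR of the sixth and last exon, 2.54 kb from the 3′ end of the gene and 13.7 kb from its 5′ end. The neighbouring Vmn2r13 had 5 intronic peaks in 2 groups. The group nearer the 3′ end consisted of peaks with fold enrichments of 11.9, 2.96 and 5.78 at 6.02, 6.93 and 7.22 kb from the end of the gene, and the other group of peaks with 8.14 and 2.89 at 14.1 and 14.8 kb. The peak in Vmn2r11 was 13.45 kb from the closest annotated TSS of the gene, and those in Vmn2r13 were 24.4 to 32.8 kb from its TSS.

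The remaining intragenic peaks were weak. Vmn2r7 had a peak of 17 fragments in an intron at chr3:64791049-64791395, with a fold enrichment of 4.73. Vmn2r9 had a peak of 15 fragments and a fold enrichment of 4.20 at chr5:108836263-108836386, in the 3′ UTR of its last exon and 1.04 kb from the 3′ end. In Vmn2r20 a peak of 13 fragments and a fold enrichment of 3.68 lay in an intron at chr6:123398571-123398719, where 71.4% of the words were unique. The lowest fragment number at a summit in the whole peak list was 10 and the median 29, so these 3 peaks were near the lower end of what the library could show.

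Some peaks in the clusters resembled one another in sequence. Of the 57 cluster peaks, 23 (40.4%) matched another cluster peak in a nucleotide BLAST at an e-value of 1e-10 and 34 did not. The share among peaks elsewhere was not computed. The Vmn2r9 peak was 91.1% identical over 123 bp to the peak between Vmn2r10 and Vmn2r11 (fold enrichment 9.72, 36 fragments), and 92.7% identical over 124 bp to the peak between Vmn2r11 and Vmn2r12 (6.04, 22 fragments). Those 2 peaks lay beyond the annotated 3′ ends of Vmn2r11 and Vmn2r12, at 10.57 and 11.59 kb. The strongest Vmn2r13 peak, on chromosome 5, matched the peak upstream of Vmn2r85, on chromosome 10, with 90.1% identity over 507 bp. The longest run of identical bases shared by their printed stretches was 41 bases long. Of the 25 matching pairs, 16 were between peaks at coding TSSs of the cluster Vmn2r57 to Vmn2r63. The authors kept only uniquely mapped reads, so reads that fit several copies equally well were not counted.

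The clusters as a whole were poor in peaks. The 14 clusters spanned 12.39 Mb without N bases and held 57 peaks, or 4.60 per Mb (95% Poisson interval 3.48 to 5.96, counting error only), against 22.4 per Mb in the rest of the same chromosomes. Peaks covered 0.211% of the cluster bases and 0.953% of the rest. Without other coding genes and 5 kb around them, the densities were 2.62 and 14.3 peaks per Mb. The median fold enrichment was 8.14 for the cluster peaks and 6.11 for the other peaks of these chromosomes.

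Few of the cluster peaks were close to a receptor gene. By the type of the nearest TSS, 18 of the 57 peaks lay within 1 kb of a coding TSS and 3 within 1 kb of a noncoding or pseudogene TSS. Among these 3, the peak nearest to the pseudogene Gm18190 also lay at a coding TSS, that of Gm45844, with a fold enrichment of 17.8. Of the others, 9 lay in Vmn2r gene bodies, 5 in bodies of other coding genes and 22 between genes. Only 3 of the 57 peaks were within 10 kb of a Vmn2r TSS (5.26%), and 24 were more than 100 kb away. The median fold enrichment was 12.2 for the 18 peaks whose nearest TSS was coding. It was 6.83 for those between genes and 4.73 for those in Vmn2r gene bodies. Of 31 other coding genes in the clusters 16 had a TSS peak, which was 51.6% pooled and close to the 51.0% of all other genes. Clusters differed, with 10 of 13 in Vmn2r57 to Vmn2r63 and 1 of 10 in Vmn2r90 to Vmn2r124. Gm20449 and AW146154 were counted at the same peak. Of the 16 genes, those with the highest fold enrichment were Zfp975 (17.9), Zfp40 (17.8), Gm45844 (17.8), 2610021A01Rik (17.2), Gm6871 (16.4) and Gm45783 (15.2).

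In the cluster Vmn2r57 to Vmn2r63 on chromosome 7, all 10 peaks were within 1 kb of a coding TSS that was not a Vmn2r TSS, and its 7 receptor genes were 50.4 to 425 kb from the nearest peak. Coding TSSs with a peak and receptor genes without one thus lay in the same 1.538 Mb. Around the TSS of Vmn2r62 only 12% of the 75-base words were unique, against at least 84% in the other 6 receptor genes. The largest cluster, Vmn2r90 to Vmn2r124 on chromosome 17, had 22 genes in 2.893 Mb and 20 peaks, 4 of them at a coding TSS. Of the 20 peaks, 19 lay between 38.0 and 269.9 kb from the start of the cluster, around Spaca6, a sperm protein gene, Has1 (hyaluronan synthase) and the Fpr genes, and only 1 of the 22 receptor genes starts before that point. The remaining peak was that near Vmn2r102, 1955 kb from the start, with 27 fragments and a fold enrichment of 7.35. On either side of it, 1.685 and 1.286 Mb were free of peaks and held 12 and 9 receptor genes.

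The cluster with the highest density was Vmn2r8 to Vmn2r17 on chromosome 5, with 11 peaks in 0.667 Mb, or 16.5 per Mb (95% Poisson interval 8.24 to 29.5). That interval includes the 22.4 per Mb of the rest. All its peaks lay in the stretch from Vmn2r9 to Vmn2r13, and none was within 1 kb of any annotated TSS. The strongest was between Vmn2r12 and Vmn2r13, at chr5:109136733-109137184, with 68 fragments and a fold enrichment of 14.4, and held a TGACTCA sequence. The median distance from TSS to peak in this cluster was 25.3 kb over 10 genes.

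**Figure D3:**
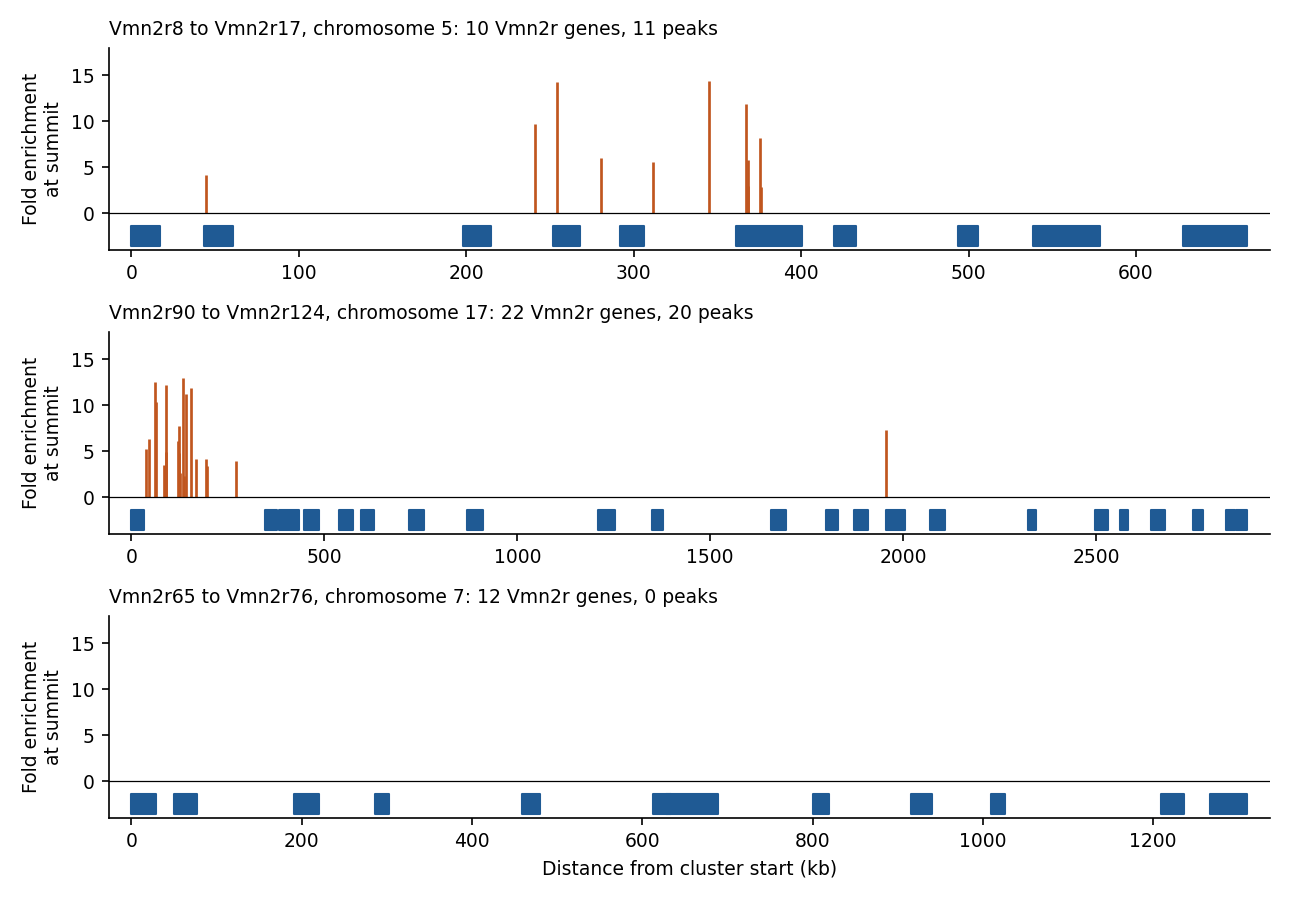
Receptor genes (boxes) and peaks (vertical lines, height is the fold enrichment at the summit) along 3 clusters, plotted by distance from the cluster start in kb. The 11 peaks of Vmn2r8 to Vmn2r17 lie amid the genes, 19 of the 20 peaks of Vmn2r90 to Vmn2r124 lie near its start, and Vmn2r65 to Vmn2r76 has none.

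No peak was found in 6 clusters. They were Vmn2r65 to Vmn2r76 (12 genes, 1.311 Mb), Vmn2r46 to Vmn2r52 (7 genes), Vmn2r53 to Vmn2r56 and Vmn2r80 to Vmn2r83 (4 genes each), Vmn2r77 to Vmn2r79 (3 genes) and Vmn2r88 to Vmn2r89 (2 genes). For Vmn2r65 to Vmn2r76 the absence allows up to 2.81 peaks per Mb at the upper 95% Poisson bound, while for Vmn2r88 to Vmn2r89, at 0.0534 Mb, it allows 69.1 and is not informative. The interval without a peak around Vmn2r65 to Vmn2r79 was 2.518 Mb long and held 15 receptor genes, and was the sixth longest of 3443 such intervals on chromosome 7. In all, 77 of the 120 genes lay in 11 peak-free intervals longer than 500 kb, and 60 of these in 7 intervals longer than 1 Mb. The share of other coding genes in such intervals was not computed. Among those longer than 1 Mb, the chromosome 7 intervals with 13 and 9 receptor genes lie at Vmn2r29 to Vmn2r45 and Vmn2r46 to Vmn2r52. Only 20.8% and 35.6% of the 75-base words in these clusters were unique. Closed and unreadable sequence cannot be told apart in much of them. A gene in a long interval can still be near its rim, such as Vmn2r121, 15.2 kb from a peak.

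**Figure D4:**
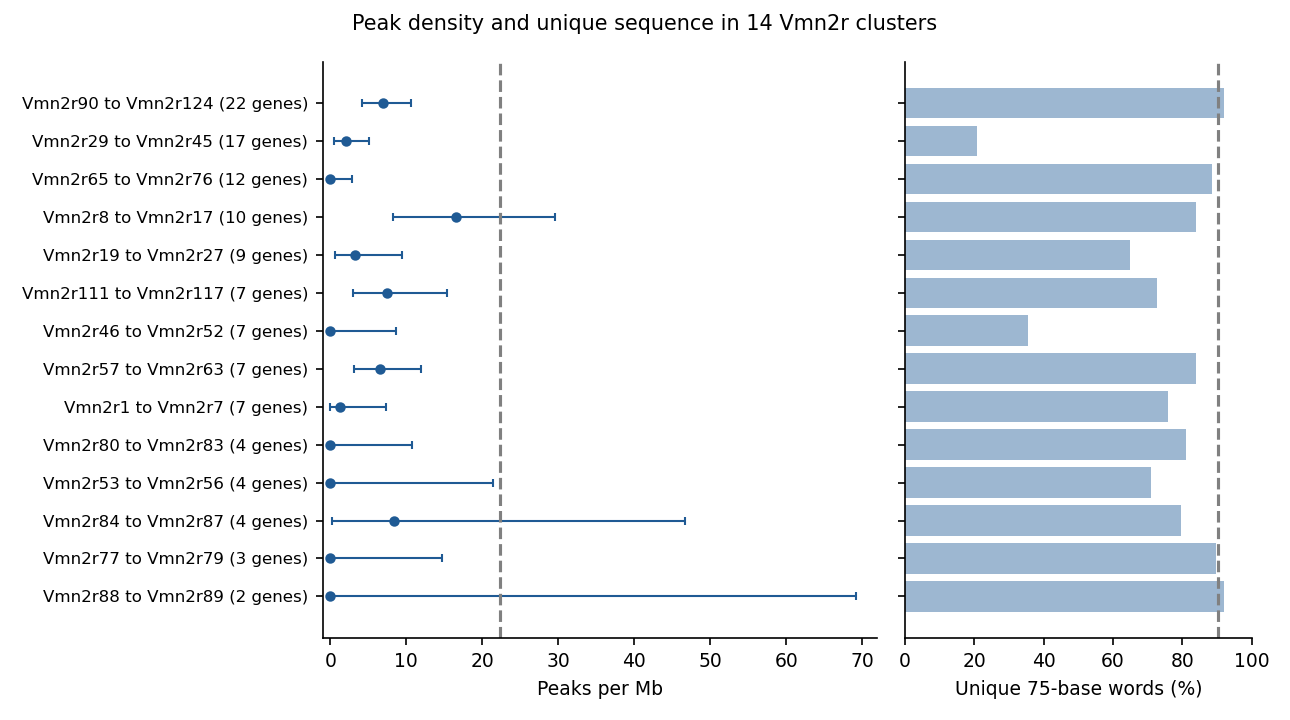
Peaks per Mb with 95% Poisson intervals (left) and percent of 75-base words that are unique in the genome (right) for the 14 clusters, ordered by number of genes, with dashed lines for the rest of the same chromosomes (22.4 per Mb and 90.2%). The clusters Vmn2r29 to Vmn2r45 and Vmn2r46 to Vmn2r52 stand apart with 20.8% and 35.6% unique words.

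Pooled over the clusters, peak density changed at their edges. In the first 100 kb outside it was 19.7 per Mb (95% Poisson interval 14.8 to 25.6), against 4.60 inside. Between 100 and 500 kb it was 23.4 to 27.4 per Mb, and from 500 to 1000 kb 30.8 to 44.8 per Mb. Single clusters differed, as the nearest peaks outside Vmn2r65 to Vmn2r76 were 123 and 1085 kb from its edges. Of 36 other coding genes with their 5′ end in the first 100 kb, 11 had a TSS peak, a lower share than the 51.0% of all other coding genes of these chromosomes. The nearest coding gene with a TSS peak lay within 100 kb on 9 of 27 cluster sides and more than 1 Mb away on 6, with a median of 180 kb. It was AI987944 at 2.57 kb before the cluster Vmn2r57 to Vmn2r63 at the near end and Tmem135 at 3158 kb after Vmn2r65 to Vmn2r76 at the far end.

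**Figure D5:**
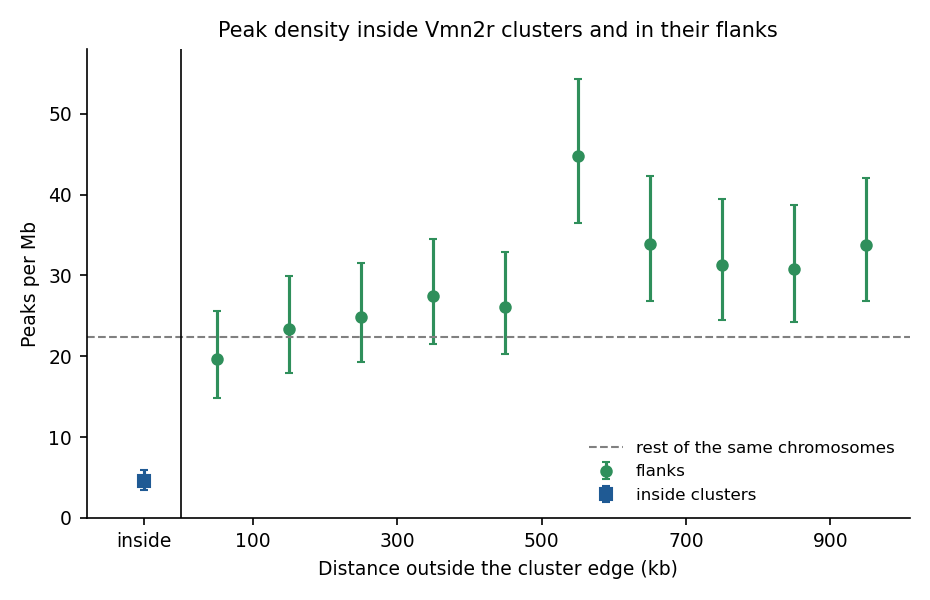
Peaks per Mb inside the 14 clusters (square) and in 100 kb bins outside their edges (circles, distance in kb), with 95% Poisson intervals. Pooled over the clusters, the density is 4.60 per Mb inside and 19.7 per Mb in the first bin outside. The dashed line marks 22.4 per Mb for the rest of the same chromosomes.

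Members of a tandem family are alike in sequence, and a copy shared by 2 genes yields no uniquely mapped reads. Within 1 kb of the TSS, the median share of unique 75-base words was 95% over the Vmn2r genes, with a range of 0 to 100%, and 27 genes were below 50%. Inside the clusters 71.6% of the words were unique, against 90.2% in the rest. The share was lowest in Vmn2r29 to Vmn2r45, at 20.8%, where the 17 genes had a median of 8% around their TSSs and where 4 peaks were called. A closed and an unreadable TSS cannot be told apart in such genes. The 2 clusters below 50% held 1.65 peaks per Mb (4 peaks, 95% Poisson interval 0.45 to 4.23). The other 12 clusters held more, 5.32 per Mb (3.98 to 6.95), and this difference was not tested. Among the 76 genes with at least 90% unique words, the number with a TSS peak was also 0, and the median distance to a peak was 165 kb, against 143 kb in the other 44. Among other coding genes 57.0% had a TSS peak where the unique share was above the Vmn2r median, 20.8% where it was at or below that median and 7.8% where it was at or below the lowest Vmn2r quartile. The part of unique sequence in the lack of TSS peaks was not tested further.

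The TSS regions of the family were poor in CpG. In the 500 bp to either side of the TSS, the ratio of observed to expected CpG had a median of 0.101 over the Vmn2r genes and a highest value of 0.279, compared with a median of 0.496 over the other genes. TSS peaks were also less frequent in other genes of this kind. Of 3118 other genes at or below the highest Vmn2r value, 464 had a TSS peak (14.9%), of 929 at or below the Vmn2r median 46 did (4.95%), and above the highest Vmn2r value the share was 69.5%. In the 300-base RefSeq promoters, the median number of CpG was 1 over 115 Vmn2r promoters (Vmn2r29 has 2) and 7 over 32734 others, and 33 Vmn2r promoters had none (28.7%, against 5.35%). The part of CpG content in the lack of TSS peaks was not tested.

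A TGACTCA sequence on either strand was present in 31 of the 115 Vmn2r promoters (27%) and in 5.13% of the other promoters. It was found in 12 of 17 genes of the cluster Vmn2r29 to Vmn2r45, in 11 of 22 genes of Vmn2r90 to Vmn2r124, in 3 genes of Vmn2r46 to Vmn2r52, in 2 each of Vmn2r8 to Vmn2r17 and Vmn2r53 to Vmn2r56, and in Vmn2r65. Its position relative to the RefSeq start was alike within clusters, from -107 to -100 in Vmn2r90 to Vmn2r124 and from -123 to -89 in Vmn2r29 to Vmn2r45. The promoters are copies of one another to a large extent and do not count as independent, since 65 of 114 members had another member with at least 90% of the 300 bases identical. The printed promoters of Vmn2r29 and Vmn2r48, from different clusters, share a run of 75 identical bases. None of the 31 promoters had a peak within 1 kb of the RefSeq start, whereas 35.8% of 1678 other promoters with the sequence and 40.1% of those without it did. Of the 31 members, 13 had less than 50% unique words around the TSS, where a lack of peaks is not informative, and 17 had at least 90%. TATAAA was present in 22.6% of Vmn2r promoters and 13.6% of the others, and CCCNNGGGA, the sequence bound by EBF factors, in 15.7% and 6.53%.

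Across the clusters, 1603 TGACTCA sites were found, or 129 per Mb, against 160 per Mb in the rest. Of these sites 18 lay in a peak (1.12%), whereas 5.90% of the sites in the rest of the chromosomes did. Among cluster peaks more than 1 kb from any TSS, 8 of 36 (22.2%) held the sequence within 50 bp of the summit, close to the 26.2% in other such peaks. Fewer unique words (71.6% against 90.2%), more soft-masked repeats (52.7% against 36.1%) and a lower GC content (38.2% against 41.4%) went along with this, and their part was not tested.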

How the data were processed

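The ATAC-seq peak list of a single library, from parental NIH-3T3 cells, was analysed (1 of 31 samples), and the other 30 samples of the series were not used here. The authors aligned paired-end 75-base reads to mm10, kept uniquely mapped, non-duplicate reads on chromosomes 1 to 19, X and Y and called peaks with MACS2 in paired-end mode. The submitters' processing notes name STAR 2.5.3a and MACS2 2.1.1.20160309. Per peak, the authors deposited the fold enrichment, the −log10 p and −log10 q of a Poisson test, a score derived from the −log10 q, and the summit position. The fold enrichment is the ratio of fragment pileup to local expectation at the summit, with 1 added to both. The number of fragments at each summit follows from the fold enrichment together with its −log10 p. It came out whole for all 63434 peaks solved (tolerance 0.02), and the calculation was tested on simulated data. The study's methods give a range of read numbers for its libraries in general, and the number of reads behind this peak list is not known here.

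Peaks were set against GENCODE M21 and GRCm38. A TSS peak is a peak interval that reaches to within 1 kb of an annotated transcript start. Unique words are 75-base words, taken every 20 bases, found once on chromosomes 1 to 19, X and Y on either strand. A read pair is placed when either end is unique, so the share of unique words is a lower guide to readability. RefSeq promoters cover 250 bases before to 50 after each start (Vmn2r5, Vmn2r21, Vmn2r46, Vmn2r47, Vmn2r76 and Vmn2r77 had no entry). Intervals are exact Poisson intervals for densities and exact binomial intervals for shares at 95% and cover counting error only. The genes of a tandem family are not independent, so no test across genes was made. Named were Vmn2r genes with a TSS or gene-body peak, the 5 farthest from any peak, Vmn2r1 to Vmn2r7, and the clusters with most genes and with the highest and lowest density. Other members are named for their place in those results and were chosen after their values were seen. In the lists of other genes, up to 6 members with a TSS peak were named by fold enrichment, and Trpc2 was added after its value was seen. The members and lists were chosen with earlier results of these data known. For calling peaks in this library the methods refer to the ChIP-seq procedure, in which peaks overlapping input peaks or ENCODE blacklisted regions were dropped. Whether both filters were applied to the ATAC-seq list was not settled here, and a TSS in a filtered region would count as one without a peak. Software was BLAST 2.17.0, numba 0.67.0, SciPy 1.17.1, pandas 2.3.3, NumPy 2.4.6, matplotlib 3.10.9 and Python 3.11.15.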

Additional observations from a re-analysis of the deposited data

How the results depend on the processing

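No paired analysis was possible because a single library was analysed and no groups of samples were compared. Of 37 alternative values, 29 stayed within the 95% interval of the reported value, some of them by construction. For the share of Vmn2r genes with a TSS peak, settings stricter than the reported one could only return 0. That share was 0 in all settings but those below. It was 1.67% with a distance of 5 kb (60.0% in the other genes). The share with RefSeq starts, an alternative chosen after seeing the data, was 0.877%, for which Vmn2r29 was responsible (39.8% in 11591 other genes with RefSeq starts, a different set from the coding genes above). The density of 4.60 peaks per Mb in clusters moved to 3.23 with peaks of at least 5-fold enrichment, to 2.32 with clusters joined at 250 kb, to 2.62 without other coding genes and 5 kb around them, and to 9.71 per Mb of sequence not soft-masked. In the rest of the chromosomes the same settings gave 14.1, 22.3, 14.3 and 35.0 per Mb. With clusters joined at 250 kb, covered bases moved from 0.211% to 0.0868% and TGACTCA sites inside a peak from 1.12% to 0.328%. A gap of 250 kb gives 19 clusters with 112 genes, which leaves out stretches between receptor genes that hold other genes. The share of unique words around Vmn2r TSSs, 75.8% over all words, was 65.3% with words of 37 bases and 73.0% within 250 bp. The move at 5-fold enrichment follows from the stricter peak list and that without soft-masked sequence from the smaller denominator, while leaving out other coding genes took away 27 of the 57 peaks. The cause of the moves in unique words was not tested. A peak needed 10 fragments at its summit, so weaker accessibility was not detectable at this depth.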

Other observations

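At Vmn2r29 on chromosome 7, the result depended on the annotation. GENCODE M21 starts this gene at a CpG-poor TSS 30.4 kb from the nearest peak. RefSeq adds a noncoding transcript on the same strand that starts at 7278289, at the peak chr7:7277731-7278545 (fold enrichment 17.8, 73 fragments), with 23 CpG in the 300 bases of its promoter. Within 1 kb of that position GENCODE has starts of Gm45844, a coding gene that overlaps Vmn2r29, and of the pseudogene Gm18190, and none of Vmn2r29. With RefSeq starts Vmn2r29 was the only 1 of 114 members with a TSS peak. RNA was not measured in this library, so which transcripts are made from that start is not known here.

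The peak closest to a receptor TSS, 1.63 kb from Vmn2r102, was short (122 bp), and all of its sampled 75-base words were unique. It lay alone between peak-free stretches of 1.685 and 1.286 Mb.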
